A study of Mus musculus with 44 samples.

Results

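The RNAs captured by an antibody against N6-methyladenosine (m6A) are described here for the B-cell lymphocyte stromal progenitor (BLSP), a population sorted from long bones of newborn mice. The comparison uses 4 of the 44 libraries of the study, namely 2 libraries of antibody-captured RNA (IP) and 2 libraries of the RNA that went into the capture (input), and sets IP against input in BLSP. The study profiled m6A in 8 sorted skeletal populations to ask which transcripts carry the mark along the skeletal lineage. All BLSP libraries came from WT mice of the C57Bl6 strain at postnatal day 3 that received no treatment. In the study, WT stands for Mettl3 fl/fl control mice that carry no Cre, and lower limbs were taken regardless of sex. BLSP were sorted as CD45-, Ter119-, Tie2-, AlphaV+, Thy1+, 6C3- and CD105- cells, and the sorted cells of 1 batch were divided between IP and input. The labels do not say how many animals stand behind a replicate, so the p-values measure the spread between these libraries.

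m6A is a methyl group on adenosine that a nuclear writer complex around METTL3 and METTL14 adds to RNA, mostly to mRNA at GGAC-like motifs in long exons and near stop codons. Reader proteins such as the YTHDF family bind the mark and affect the decay and translation of the mRNA, and the erasers FTO and ALKBH5 remove it. In the method used here (SLIM-seq) RNA from a low amount of total RNA was captured by the antibody, with no fragmentation before the capture described, and was then reverse transcribed and amplified by a protocol based on Smart-seq2, which primes on poly(A). A gene's ratio of IP to input is a value for the gene as a whole relative to the other transcripts of the library and gives no position of the mark.

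The 4 BLSP libraries held 21145166 (IP replicate 1), 26358847 (IP replicate 2), 26277353 (input replicate 1) and 38788039 (input replicate 2) counts on 46831 genes. Across 18425 genes, log2 expression correlated with r = 0.970 between the input replicates and r = 0.894 between the IP replicates, and the ratio of IP to input correlated with r = 0.541 between the replicates. The antigens of the gate were checked in the input RNA of all 8 populations, the others being SSC (skeletal stem cells), BCSP (bone, cartilage and stromal progenitors) and their precursors (pre-BCSP), PCP (pro-chondrogenic progenitors), THY, 6C3 and HEC. Thy1, the antigen that BLSP share with PCP and THY, lay at 31.99 and 24.7 CPM (read counts scaled to library size, here over the 32 WT libraries) in the BLSP inputs, and below 0.5 CPM in each SSC, pre-BCSP, BCSP, 6C3 and HEC input. Itgav (AlphaV) lay at 107 and 94.8 CPM. Enpep (6C3) lay at 5.52 and 4.11 CPM, against 41.8 to 57.6 CPM in the 6C3 and HEC inputs, and Eng (CD105) at 18.0 and 25.8 CPM was lower than in every other WT input. Ptprc (CD45) stayed below 1 CPM and Tek (Tie2) below 4 CPM. Mgp, taken as a marker of these cells, encodes an inhibitor of matrix calcification and lay at 231 and 276 CPM, within the range of THY and PCP (180.4 to 444 CPM). It was lower than in the inputs of 6C3 (351 and 597 CPM) and HEC (945 and 814 CPM) and in all SSC, pre-BCSP and BCSP inputs (927 to 1803 CPM). Its level thus did not single out BLSP. Transcripts that mark other cells were present as well. On a scale over the 4 BLSP libraries, which is used from here on, 7 osteoblast markers summed to 78220 and 88282 CPM. Nearly all of this sum came from Col1a1, so it is in effect the level of that gene. The 7 connective tissue fibroblast markers summed to 20733 and 22742 CPM and 7 cartilage markers to 16943 and 18802 CPM. Tendon and ligament markers (6 genes) summed to 5743 and 6064 CPM and 6 nerve and Schwann cell markers to 1671 and 1582 CPM. Red cell genes summed to 166 and 74.8 CPM, B-lymphoid genes to 62.15 and 74.8 CPM with Ebf1 as the most abundant, and endothelial, myeloid and skeletal muscle genes to between 13.95 and 30.5 CPM. Of the red cell genes 4 of 7 at measurable input were enriched in IP (57.1%), with Hba-a1 at a log2 fold change of 1.72 ± 0.44. Of all genes with at least 10 counts in each input library 11.2% were enriched, and of the coding ones with transcripts up to 1271 bases 32.04%. The red cell transcripts had a median of 703 bases. Ptprc had 21 and 19 counts in input and 145 and 40 in IP (2.77 ± 0.90, adjusted p = 0.065). When all 32 WT libraries shared 1 fit, 0 of the 7 red cell genes were called, with Hba-a1 at 1.597. In that fit with a replicate block 4 were called. The call of Ptprc was lost under 4 of 12 alternatives. These were leaving out input replicate 2 (2.35) or IP replicate 1 (1.30) and the fits of all 32 WT libraries without (2.63) and with a replicate block (2.32). Fewer cells of a type and less RNA per cell cannot be told apart in such sorted bulk samples, and the part of these transcripts in the results was not tested.

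The motif around which the writer complex works is shown for 5 enriched and 4 depleted transcripts, chosen after their values were seen, since both kinds hold it. Each line gives the GGACT (GGAC where no exon holds GGACT with 10 bases on either side) nearest to the stop codon in the representative GENCODE vM21 transcript, 5′ to 3′ on the strand of the gene, with the motif in capitals.
Mgp (enriched, GRCm38 chr6:136875733-136875756, minus strand, exon 1, 5′ UTR): cagactcacaGGACacccgagaca
Thy1 (enriched, GRCm38 chr9:44047423-44047447, plus strand, exon 4, coding sequence): tccaagccctGGACTtcatttctct
Wtap (enriched, GRCm38 chr17:12967490-12967514, minus strand, exon 8, coding sequence): agaatggcttGGACTcaaatgtaaa
Jag1 (enriched, GRCm38 chr2:137082074-137082098, minus strand, exon 26, 3′ UTR): cacattttaaGGACTgactgaggca
Rps29 (enriched, GRCm38 chr12:69158666-69158689, minus strand, exon 2, coding sequence): agtacgcgaaGGACataggcttca
Mical1 (depleted, GRCm38 chr10:41486967-41486991, plus strand, exon 24, 3′ UTR): tccgccatctGGACTgcttagtcag
Junb (depleted, GRCm38 chr8:84977259-84977283, minus strand, exon 1, 3′ UTR): ctcacacactGGACTccggcccgcc
Serpinh1 (depleted, GRCm38 chr7:99346396-99346420, minus strand, exon 5, coding sequence): acatctggcaGGACTgggcctgacc
Psap (depleted, GRCm38 chr10:60294975-60294999, plus strand, exon 6, coding sequence): acgtctgccaGGACTgtatgaagct
The A of the Thy1 and Wtap motifs lies 14 and 32 bases before the stop codon, and that of the Mical1 and Junb motifs 93 and 126 bases after it. Mgp, with 1 GGAC and no GGACT in 617 bases, was enriched, and Mical1, with 15 GGAC in 3563 bases, was among the most depleted transcripts.

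Of 18425 genes tested with edgeR's quasi-likelihood test, 2286 (12.4%) were enriched in IP by a log2 fold change above 1 at an unadjusted p under 0.05, which is the threshold the study set for an m6A-tagged transcript, and 2725 (14.8%) were depleted by the mirrored threshold. At a Benjamini-Hochberg adjusted p under 0.05 and any fold, 2126 genes (11.5%) were higher and 2944 (16.0%) lower in IP. The enriched count fell to 1516 without input replicate 1, to 1188 without input replicate 2 and to 1313 when all 32 WT libraries shared 1 estimate of the spread. What a call rests on differs with the input level. Genes with at least 10 counts in each input library (measured input) made up 16296 of the tested genes, with 1819 enriched (11.2%) and 2725 depleted (16.7%) and a median log2 fold change of -0.12. Genes with at most 3 counts in each input library made up 228 of the tested genes and 205 of them were enriched, but only genes with counts in IP could pass the filter on low counts, so this share is set by the filter and these genes are described apart. Of 7526 genes between these classes, 1901 passed the same filter and gave 262 enriched and 0 depleted genes. Counts in IP could help these genes pass as well, so this one-sided result is set in part by the filter. The 2286 enriched genes include those of both classes. Without input replicate 2, 1087 genes of measured input were enriched. In every enriched or depleted gene of measured input the ratio had the same sign in both replicates. The calls rest on the same 4 libraries, so this agreement is no separate evidence.

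**Figure D1:**
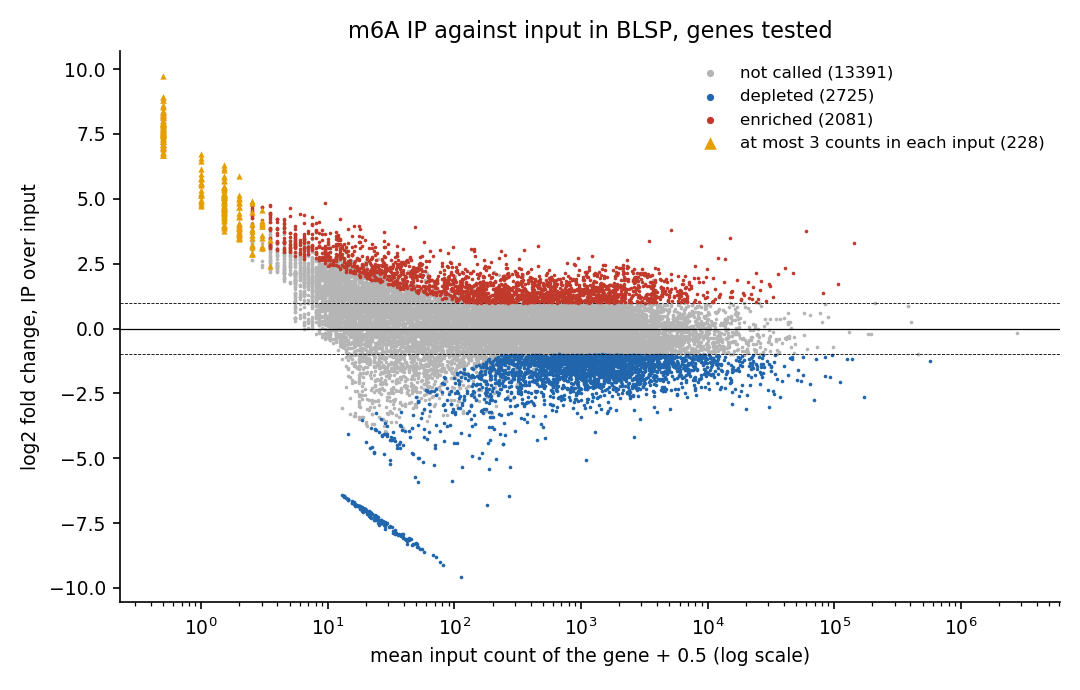
Each point is a gene tested in BLSP, with its mean input count plus 0.5 on a log axis and its log2 fold change of IP over input on the vertical axis. Red, blue and grey points are enriched, depleted and uncalled genes, dashed lines mark 1 and -1, the 228 orange triangles (at most 3 counts in each input library) sit at the upper left, and the separate line of blue points at the lower left holds genes with 0 counts in both IP libraries.

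The transcripts most enriched among those with at least 50 CPM in input were mostly mitochondrial and ribosomal RNAs. mt-Rnr1, the small ribosomal RNA of mitochondria, had 445 and 453 CPM in input and 5136 and 4935 CPM in IP, and a log2 fold change of 3.49 ± 0.12, adjusted p = 0.00086. mt-Rnr2, the large one, had 5148 and 3707 CPM in input and 41881 and 46085 CPM in IP (3.31 ± 0.18, adjusted p = 0.0013). The mRNAs mt-Nd6 and mt-Nd2, which encode subunits of respiratory complex I, followed with 3.36 and 3.19. In each of these 4 genes both IP libraries lay several-fold above both inputs. The entry Rn18s-rs5, named for 18S ribosomal RNA, had 3154 and 859.7 CPM in input and 33632 and 20234 CPM in IP (3.75 ± 0.62, adjusted p = 0.0072), and Lars2, a mitochondrial leucyl-tRNA synthetase, had 179 and 136 CPM in input and 2596 and 1807 CPM in IP (3.81 ± 0.24, adjusted p = 0.0013). Ribosomal RNA genes are present in many near-identical copies and mouse Lars2 holds sequence similar to ribosomal RNA, so the counts of both entries are uncertain. Together the mitochondrial genome transcripts took 1.41% and 1.07% of all counts in the input libraries and 7.71% and 8.17% in the IP libraries.

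All 15 mitochondrial genome transcripts of measured input were enriched, with a median log2 fold change of 2.84 against -0.12 over all genes of measured input. Their range ran from 1.73 to 3.49, and the median ratio was 2.50 in replicate 1 and 3.20 in replicate 2. Of the 88 cytosolic ribosomal protein genes of measured input, 82 were enriched (93.2%, against 11.2% of all genes of measured input), 0 were depleted, and the median was 1.84. The lowest member lay at -2.06 without being called, and 1 member was lower in IP at an adjusted p under 0.05. With a scaling by library size alone 1 member was depleted, and without a filter on low counts 2 were. Rpl39, a protein of the large subunit at the peptide exit tunnel, had 46.9 and 29.1 CPM in input and 259.6 and 267 CPM in IP (2.80 ± 0.25, adjusted p = 0.0014). Rps29 of the small subunit had 79.5 and 61.1 CPM in input and 458 and 417 CPM in IP (2.64 ± 0.18, adjusted p = 0.0013), and Rps12 gave a log2 fold change of 2.72 ± 0.24. Rpl5, which carries 5S ribosomal RNA into the large subunit and was the most abundant of the list, had 999.98 and 888 CPM in input and 2793 and 3017 CPM in IP (1.62 ± 0.13, adjusted p = 0.0013). Neither IP library overlapped an input library in these members. Of the nuclear-encoded subunits of oxidative phosphorylation, 50 of 77 were enriched and 2 depleted, with a median of 1.36. Ndufa3 and Ndufc1, small subunits of complex I, had log2 fold changes of 2.38 ± 0.16 and 2.23 ± 0.14, and Atp5k of the ATP synthase 2.18 ± 0.25. The 2 depleted members were longer transcripts, Sdha of complex II (145 and 147 CPM in input and 54.2 and 61.4 CPM in IP, -1.33 ± 0.15, adjusted p = 0.0022) and Uqcrc1 of complex III (-1.42 ± 0.15). Under every alternative in the processing, between 77 and 82 of the ribosomal protein genes, 13 and 15 of the mitochondrial and 47 and 54 of the oxidative phosphorylation genes were enriched.

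Other lists of short or non-coding transcripts also held enriched genes. Metallothioneins are small proteins that bind zinc and copper, and their 3 genes of measured input were all enriched. Mt1 had 230.5 and 244 CPM in input and 1123 and 1425 CPM in IP (2.43 ± 0.16, adjusted p = 0.0013), Mt2 a log2 fold change of 2.02 ± 0.26, and Mt3, at under 1 CPM in input, 2.84 ± 0.89, adjusted p = 0.058. The call of Mt3 was lost without input replicate 1 (2.55), input replicate 2 (2.98) or IP replicate 1 (1.72), and in both fits of all 32 WT libraries. Of 21 nuclear or snoRNA-host long non-coding RNAs, 12 were enriched (57.1%) and 1 was depleted, with a median of 1.38. H19, an imprinted RNA abundant in fetal tissue, had 978 and 549 CPM in input and 3606 and 3130.0 CPM in IP (2.14 ± 0.27, adjusted p = 0.0031), and Malat1, a nuclear RNA, had 2151 and 2623 CPM in input and 5306 and 7099 CPM in IP (1.38 ± 0.18, adjusted p = 0.0033). Snhg14 and Snhg8, which host small nucleolar RNAs in their introns, had log2 fold changes of 2.65 ± 0.46 and 2.18 ± 0.52. The exception was 2900097C17Rik at -1.04 ± 0.14, which was -0.92 with at least 10 counts required in each input library. Of 38 clustered histone genes, 10 were enriched (26.3%) and 2 depleted (4 without IP replicate 2), with a median of 0.74, from Hist1h2ao at 2.55 to Hist2h2be at -4.40. Histone genes are near-identical copies, so the split of reads among them is uncertain. Histone transcripts had a median of 662 bases and metallothionein transcripts one of 536. Of all coding genes of measured input with transcripts up to 1271 bases, 32.04% were enriched. The part of length in these lists was not tested. Of the protein-coding genes of measured input 9.91% were enriched, against 17% of 300 lincRNA genes, 14.4% of 436 antisense genes and 18.8% of 330 processed pseudogenes. Reads of an antisense gene and its partner cannot be told apart without strand, and those of a processed pseudogene and its parent gene may be shared.

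**Figure D2:**
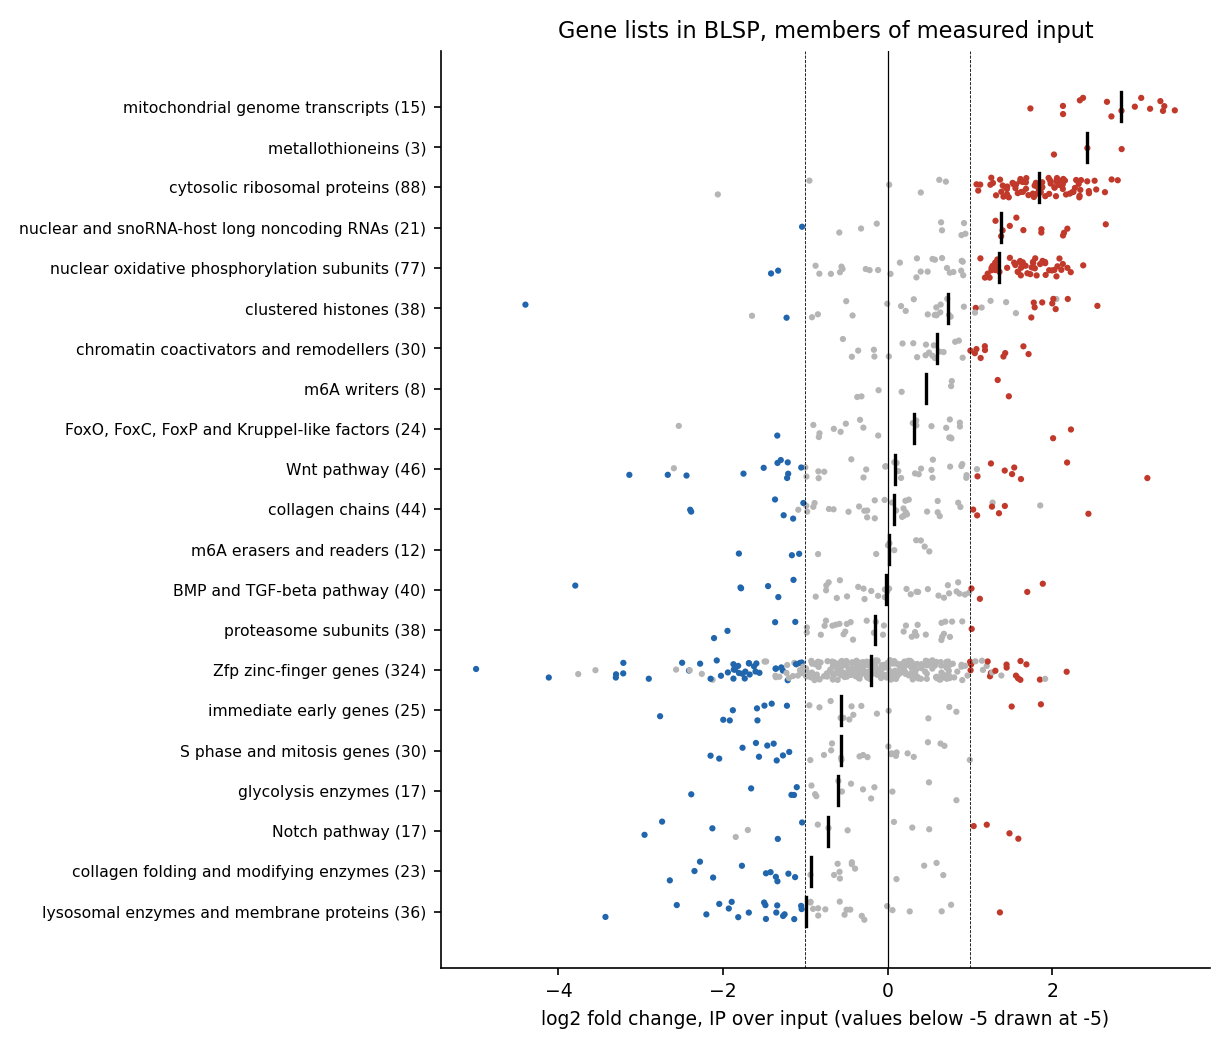
Each point is a gene of measured input, placed in its list on the vertical axis (number of members in brackets) by its log2 fold change of IP over input in BLSP, in red where enriched, blue where depleted and grey where not called. Black bars are list medians, dashed lines mark 1 and -1, values under -5 are drawn at -5, and the lists run from the mitochondrial genome, with all 15 members enriched, to lysosomal proteins, with 18 of 36 depleted.

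Among protein-coding genes of measured input, the 10 most enriched were Jdp2, Hsd17b11, Lars2, Fgf14, Il17re, mt-Nd6, Mss51, Stfa3, mt-Nd2 and 5730522E02Rik. Of these, 7 had under 2 CPM in input, so their ratios rest on few input counts. Jdp2, a repressor of AP-1 activity, had 17 and 14 counts in input and 139 and 209 in IP (3.93 ± 0.57, adjusted p = 0.0048). Hsd17b11, a short-chain dehydrogenase of lipid droplets, had 37 and 59 counts in input and 440 and 567 in IP (3.93 ± 0.31, adjusted p = 0.0013). Fgf14, a fibroblast growth factor homologue that binds sodium channels, had 39 and 16 counts in input and 161 and 401 in IP (3.70 ± 0.73, adjusted p = 0.013). 5730522E02Rik, with 14 and 11 counts in input and 30 and 146 in IP, missed an adjusted p of 0.05 (3.18 ± 0.95, adjusted p = 0.051). Its log2 fold change stayed above 1 under every alternative. An unadjusted p under 0.05 was lost in 4 of 12, namely without input replicate 2 (2.69), without IP replicate 2 (1.79) and in the fits of all 32 WT libraries without (3.07) and with a replicate block (2.80). Il17re and Mss51 lost their calls in the latter 2 fits.

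Several long mRNAs of chromatin regulators were enriched as well, in a list assembled after the values were seen. Of 30 chromatin coactivators and remodellers, 10 were enriched (33.3%, against 11.2% of all genes of measured input), 0 were depleted and the median was 0.60. The enriched number was 7 without either input replicate or IP replicate 2, and 6 in the fits of all 32 WT libraries. These transcripts had a median of 8542 bases. In the longest decile of all coding genes (6578 bases and more) 19.1% were enriched and 4.01% depleted, with a median of 0.44. The part of length in this list was not tested. Med13, part of the kinase module of Mediator, had 33.3 and 23.1 CPM in input and 96.3 and 88.03 CPM in IP (1.71 ± 0.22, adjusted p = 0.0032). Arid1b, a subunit of the BAF remodeller, had a log2 fold change of 1.65 ± 0.23, and Bptf, the largest subunit of NURF, 1.43 ± 0.16. Among 58 histone lysine methyltransferases and demethylases, 13 were enriched (22.4%) and 9 depleted (15.5%, against 16.7% of all genes of measured input), with a median of 0.15. Without input replicate 1 these numbers were 8 and 6, and without input replicate 2 they were 7 and 6. Kdm6b, which removes methyl groups from lysine 27 of histone H3, was the most abundant and had 682 and 691 CPM in input and 2000.0 and 2125 CPM in IP (1.59 ± 0.12, adjusted p = 0.0013), whereas Kdm4b had 44.6 and 52.9 CPM in input and 10.8 and 9.42 CPM in IP (-2.27 ± 0.22, adjusted p = 0.0016). Abundant mRNAs of more than 6577 bases were also led by Bmp2k, a kinase, at 1.93 ± 0.16, Ric1 at 1.90 ± 0.19, Abhd2 at 1.82 ± 0.18 and Birc6, a giant inhibitor of apoptosis proteins, at 1.59 ± 0.15.

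Genes of the m6A machinery held calls in both directions, as did all genes of measured input (11.2% enriched and 16.7% depleted). The lists are short, and whether their shares differ from these was not tested. Of 8 writer genes, 2 were enriched (25%) and 0 depleted. Wtap, the scaffold that holds the writer complex in nuclear speckles, had 121 and 112 CPM in input and 295 and 353 CPM in IP (1.47 ± 0.15, adjusted p = 0.0019), and Rbm15, which recruits the complex to RNA, had 70.5 and 58.2 CPM in input and 170.1 and 154 CPM in IP (1.34 ± 0.16, adjusted p = 0.0027). In both genes the IP libraries lay above the inputs without overlap. Mettl3, the catalytic subunit, had 11.99 and 12.9 CPM in input and 10.6 and 8.63 CPM in IP, a log2 fold change of -0.37 ± 0.29, adjusted p = 0.39. Of 12 eraser and reader genes, 0 were enriched and 3 depleted (25%). Fto, the demethylase, had 166 and 199.6 CPM in input and 50.2 and 54.2 CPM in IP (-1.81 ± 0.16, adjusted p = 0.0015), Ythdf3, a cytoplasmic reader, had 85.9 and 84.96 CPM in input and 39.8 and 36.4 CPM in IP (-1.16 ± 0.16, adjusted p = 0.0037), and Igf2bp2, a reader that stabilises its targets, had a log2 fold change of -1.07 ± 0.23, adjusted p = 0.016, which was -0.89 without IP replicate 2 and -0.96 with at least 10 counts required in each input library.

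The most depleted transcripts with at least 50 CPM in input had low IP levels in both replicates. Mical1, an enzyme that oxidises actin, had 76.7 and 79.1 CPM in input and 4.51 and 4.10 CPM in IP (-4.18 ± 0.20, adjusted p = 0.0013). Chpf2 and Gpc1 belong to the making and carrying of sulfated sugar chains, the former as a chondroitin polymerising factor and the latter as a heparan sulfate proteoglycan of the cell surface. Chpf2 had 93.8 and 83.6 CPM in input and 6.77 and 9.11 CPM in IP (-3.48 ± 0.22, adjusted p = 0.0013) and Gpc1 had 551 and 635 CPM in input and 68.1 and 71.1 CPM in IP (-3.09 ± 0.15, adjusted p = 0.0013). Kctd10, an adaptor of a ubiquitin ligase, had a log2 fold change of -3.21 ± 0.21, Fam83g of -3.16 ± 0.54, and Fzd9, a Wnt receptor, of -3.14 ± 0.23. Among the 3549 genes with at least 50 CPM in input, 350 were enriched and 969 depleted. Of all 16296 genes of measured input, 1819 were enriched (11.2%) and 2725 depleted (16.7%). Depleted shares differed with input level, with 7.74% of coding genes in the lowest decile by input and 30% in the highest.

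The 10 most depleted protein-coding genes by fitted value, which were Thtpa, Trim29, Mkrn3, Hoxd1, Kcng1, Grpr, Grhl3, Drc1, Nrros and Cdx1, all had 0 counts in both IP libraries. Their fold is therefore only bounded, by setting IP at 3 counts per library. Thtpa, a thiamine triphosphatase, had 102 and 121 counts in input and was at least 26.00-fold lower in IP, and Cdx1, the last of the 10, had 33 and 62 counts and was at least 10.6-fold lower. Of the 10, 7 lost their call without 1 of the input libraries, namely Kcng1, Grpr, Drc1 and Nrros without input replicate 1, and Hoxd1, Grhl3, Cdx1 and Nrros without input replicate 2. Of all 2725 depleted genes, 145 had 0 counts in both IP libraries.

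Enzymes that fold and modify collagen, listed after the values were seen, held many depleted genes. Of 23 such genes, 11 were depleted (47.8%, against 16.7% of all genes of measured input), 0 were enriched and the median was -0.94. Serpinh1 (HSP47), the collagen chaperone of the endoplasmic reticulum, had 5552 and 4929 CPM in input and 904 and 768 CPM in IP (-2.65 ± 0.14, adjusted p = 0.0013). P3h1, which hydroxylates proline in collagen chains, had 402 and 417 CPM in input and 86.00 and 82.5 CPM in IP (-2.28 ± 0.13, adjusted p = 0.0013), and P3h2 a log2 fold change of -2.35 ± 0.21. Lysosomal proteins, also listed after the values were seen, had 18 of 36 members depleted (50%) and 1 enriched, with a median of -0.99. Psap, the precursor of the saposins that activate lipid hydrolases, had 567 and 645 CPM in input and 106 and 99.02 CPM in IP (-2.56 ± 0.14, adjusted p = 0.0013), and the protease Ctsb, the most abundant, had 1279 and 1379 CPM in input and 624 and 585 CPM in IP (-1.13 ± 0.12, adjusted p = 0.002). The enriched member was Ids, the iduronate sulfatase, at 1.36 ± 0.24. Of 17 glycolysis enzymes 5 were depleted (29.4%) and 0 enriched (median -0.60), among them Pkm with 820.5 and 745 CPM in input and 268 and 227 CPM in IP (-1.66 ± 0.14, adjusted p = 0.0014) and Eno1 at -1.10 ± 0.18, which was -0.99 without IP replicate 2 and with at least 10 counts required in each input library. Of 30 S phase and mitosis genes 10 were depleted (33.3%) and 0 enriched (median -0.56), led by Cdc20, an activator of the anaphase-promoting complex, at -2.15 ± 0.46 and Ccne1 at -2.05 ± 0.33. Depletion also differed with transcript length and GC content, as given further below. The glycolysis transcripts had a median of 2432 bases, and 30.1% of all coding genes of 2175 to 2607 bases were depleted. In the decile that holds the medians of the collagen, lysosomal and S phase lists (3050 to 3559 bases) the share was 26.9%. In the decile with the collagen list's median GC content (56.2%) it was 32.3%. The part of length and GC content in these lists was not tested. In every alternative 11 or 12 of the collagen enzymes and between 16 and 22 of the lysosomal genes were depleted.

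Immediate early genes, transcription factors and signalling genes that rise within minutes of a stimulus, held more depleted than enriched members. Of 25 members 9 were depleted (36%, against 16.7% of all genes of measured input) and 2 enriched (8%, against 11.2%), with a median of -0.57. Junb had 1695 and 2358 CPM in input and 265 and 331 CPM in IP (-2.76 ± 0.21, adjusted p = 0.0013), Ier2 had 1199.9 and 1761 CPM in input and 315 and 426 CPM in IP (-1.997 ± 0.24, adjusted p = 0.0025) and Myc had 393 and 419 CPM in input and 108 and 106 CPM in IP (-1.92 ± 0.13, adjusted p = 0.0013). Ier5 (1.86 ± 0.22) and Jund (1.51 ± 0.17) were enriched, so that the AP-1 members Junb and Jund stood on opposite sides. Egr1, the most abundant of the list at 2274 and 3391 CPM in input, had a log2 fold change of -0.69 ± 0.22, adjusted p = 0.064, and without input replicate 1 it passed the threshold at -1.04.

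**Figure D3:**
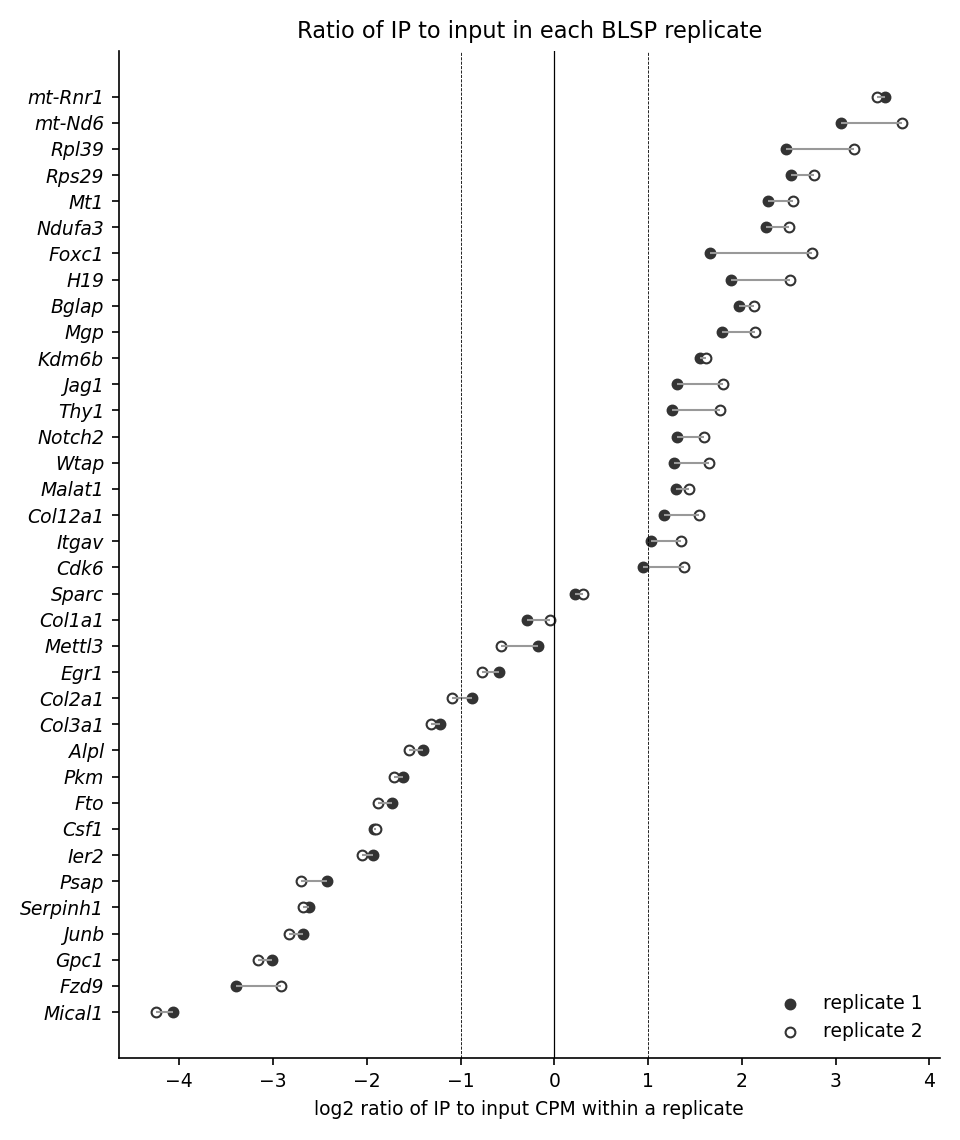
For 36 genes, all but Sparc and Col2a1 named in the text, the log2 ratio of IP to input CPM (prior count 2) is drawn. Filled circles are replicate 1, open circles are replicate 2, and dashed lines lie at 1 and -1. The genes from mt-Rnr1 to Itgav lie at or above 1 in both replicates and those from Col3a1 to Mical1 at or below -1, with the replicates of most genes close together.

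Skeletal matrix genes did not move as 1 group. Col1a1, the main chain of bone collagen and the most abundant collagen, had 77516 and 87248 CPM in input and 63404 and 84313 CPM in IP (-0.16 ± 0.15, adjusted p = 0.49). Of 44 collagen chains 6 were enriched and 6 depleted (13.6% each, against 11.2% and 16.7% of all genes of measured input), with a median of 0.08. Without input replicate 2, 3 were enriched. Col12a1, a long fibril-associated collagen, had 625 and 530.5 CPM in input and 1406 and 1542 CPM in IP (1.35 ± 0.14, adjusted p = 0.0019), and Col10a1, the collagen of hypertrophic cartilage, 1.48 and 1.71 CPM in input and 6.82 and 10.5 CPM in IP (2.44 ± 0.46, adjusted p = 0.011). Col8a2 had 918 and 1023 CPM in input and 188 and 179 CPM in IP (-2.40 ± 0.13, adjusted p = 0.0013), Col9a2, a cartilage collagen, had a log2 fold change of -2.39 ± 0.14, and Col3a1 of -1.26 ± 0.11. Among 12 bone matrix and vitamin K dependent proteins, 3 were enriched, namely Mgp, Bglap and Bglap2, and 4 were depleted. Mgp had 266 and 312 CPM in input and 922 and 1372 CPM in IP (1.99 ± 0.21, adjusted p = 0.0021), a 3.97-fold difference with no overlap between IP and input. Bglap (osteocalcin) had 10.8 and 19.5 CPM in input and 42.5 and 85.2 CPM in IP (2.08 ± 0.42, adjusted p = 0.014), and Bglap2, a near-identical neighbour on chromosome 3 with which it may share reads, had a log2 fold change of 2.12 ± 0.28. Dmp1 of mineralising cells (-2.80 ± 0.47), Gas6 (-1.55 ± 0.17), Pros1 (-1.34 ± 0.14) and Alpl, the alkaline phosphatase of osteoblasts (-1.47 ± 0.13), were depleted. Among 11 osteoblast transcription factors, Twist1 was enriched (1.04 ± 0.32, adjusted p = 0.055), and Msx1 (-2.11 ± 0.22) and Sp7 (-1.70 ± 0.33) were depleted. Twist1 fell below the fold threshold under 6 of 12 alternatives, between 0.60 without input replicate 2 and 0.97 with a scaling by library size alone or with all 32 WT libraries and a replicate block.

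Other families of cell machinery and regulators held called genes in both directions, as did all genes of measured input (11.2% enriched and 16.7% depleted). Of 57 translation initiation and elongation factors 5 were enriched (8.77%) and 4 depleted (7.02%, median -0.05). Eef1a1, the factor that delivers tRNA to the ribosome, had 771 and 604 CPM in input and 1511 and 1483 CPM in IP (1.13 ± 0.15, adjusted p = 0.0036), and Eif4h had 335 and 384 CPM in input and 115 and 99.9 CPM in IP (-1.74 ± 0.15, adjusted p = 0.0014). Without input replicate 2, Eef1a1 lay at 0.86, and 1 factor was enriched and 6 depleted. Of 38 proteasome subunits 1 was enriched (2.63%) and 4 were depleted (10.5%, median -0.16), led by Psmd3 and Psmd5 of the regulatory particle at -2.11 ± 0.19 and -1.95 ± 0.20. Of 324 zinc-finger genes named Zfp, 16 were enriched (4.94%) and 38 depleted (11.7%), with Zfp217 at 2.18 ± 0.32 and Zfp768 at -4.12 ± 0.55. Enriched Zfp genes numbered 10 without input replicate 1 and 25 without IP replicate 2. Depleted ones numbered 77 without IP replicate 1 and 68 without IP replicate 2. Of 29 Hox genes 1 was enriched (3.45%), Hoxc10 at 1.003 ± 0.31, adjusted p = 0.058, and 4 were depleted (13.8%). Among these, Hoxa11, a patterning gene of the middle limb segment, had 5.66 and 4.68 CPM in input and 1.25 and 1.26 CPM in IP (-2.04 ± 0.52, adjusted p = 0.032). The number of depleted Hox genes was 1 without either input replicate and 11 without IP replicate 2. The call of Hoxa11 was lost without input replicate 1 and that of Hoxc10 under 7 of the alternatives. Of 24 FoxO, FoxC, FoxP and Kruppel-like factors, Foxc1 and Foxo4 were enriched, the latter at 2.01 ± 0.59, adjusted p = 0.047. Klf11 was depleted at -1.34 ± 0.20, adjusted p = 0.0053. Foxo4 lost its call without input replicate 1 and also without input replicate 2. The depleted members became 4 without input replicate 1 or IP replicate 1 and 5 without IP replicate 2. Of 12 small leucine-rich proteoglycans, Epyc was enriched (1.02 ± 0.37, adjusted p = 0.091, lost under 8 alternatives), and Prelp, Podn and Fmod were depleted. Fmod, which binds collagen fibrils, had 3534 and 3985 CPM in input and 1554 and 1811 CPM in IP (-1.16 ± 0.13, adjusted p = 0.0024). Among markers of connective tissue, Dpt had 151 and 158 CPM in input and 56.9 and 64.2 CPM in IP (-1.35 ± 0.15, adjusted p = 0.0021) and Pi16 a log2 fold change of -2.95 ± 0.43. Among markers of nerve, Mbp, a myelin protein, had 819.9 and 779 CPM in input and 239 and 235 CPM in IP (-1.75 ± 0.12, adjusted p = 0.0013). Predicted genes named Gm were enriched in 266 (18.1%) and depleted in 90 (6.13%) of 1467 cases of measured input. These numbers were 144 and 24 without input replicate 1, 107 and 15 without input replicate 2. They were 390 and 186 without IP replicate 1, 307 and 167 without IP replicate 2, and 106 and 59 when all 32 WT libraries shared 1 fit.

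BLSP are named for their part in lymphoid support, and genes of stromal support were examined for that reason. Of 19 measured members 2 were enriched and 2 depleted (10.5% each, against 11.2% and 16.7% of all genes of measured input). Depleted members became 4 without input replicate 1 and 6 without IP replicate 2, and 3 were enriched without either IP replicate. Foxc1, a transcription factor of the marrow niche, had 10.99 and 7.77 CPM in input and 34.99 and 52.5 CPM in IP (2.23 ± 0.30, adjusted p = 0.0038), and Ebf3, which keeps niche cells from turning to bone, had 2.52 and 2.84 CPM in input and 9.07 and 10.96 CPM in IP (1.90 ± 0.38, adjusted p = 0.013). Csf1, the growth factor of macrophages, had 247 and 278 CPM in input and 65.2 and 74.7 CPM in IP (-1.91 ± 0.15, adjusted p = 0.0013), and Tnfrsf11b (osteoprotegerin), the decoy receptor that holds back osteoclasts, had 84.98 and 74.4 CPM in input and 40.3 and 16.4 CPM in IP (-1.49 ± 0.40, adjusted p = 0.036). Igf1, the most abundant of the list, had a log2 fold change of 0.63 ± 0.12, adjusted p = 0.012. B-lymphoid marker genes gave no calls, with 2 of 10 at measured input, and Ebf1, the more abundant of the pair and a factor of B cells and of marrow stroma, had a log2 fold change of 0.47 ± 0.18, adjusted p = 0.1. The antigens of the positive gate were both enriched. Thy1 had 36.9 and 27.9 CPM in input and 88.3 and 95.2 CPM in IP (1.51 ± 0.19, adjusted p = 0.0032) and Itgav had 123 and 107 CPM in input and 251 and 274 CPM in IP (1.19 ± 0.14, adjusted p = 0.0027). Itgav lay at 0.998 without input replicate 2, and Thy1 at 1.39 with an unadjusted p of 0.0721 when all 32 WT libraries shared 1 estimate of the spread.

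Signalling pathways also held called genes in both directions, as did all genes of measured input (11.2% enriched and 16.7% depleted). In the Wnt pathway 8 of 46 genes were enriched (17.4%) and 11 depleted (23.9%, median 0.10). Without IP replicate 1, 13 were enriched, and without IP replicate 2, 17 were depleted. Of its receptors, Fzd8 had 137 and 56 counts in input and 405 and 949 in IP (3.16 ± 0.65, adjusted p = 0.015), and Fzd9 had 2104 and 3115 counts in input and 153 and 262 in IP (-3.14 ± 0.23, adjusted p = 0.0013). Lgr4, the receptor of R-spondins, had 55.6 and 72.9 CPM in input and 160.1 and 235 CPM in IP (1.62 ± 0.23, adjusted p = 0.0047), and Tcf7l1, a transcriptional repressor of the pathway, 2.18 ± 0.25. The ligands Wnt9a (-2.67 ± 0.28) and Wnt11 (-2.44 ± 0.95, adjusted p = 0.11) were depleted. In the Notch pathway 4 of 17 genes were enriched (23.5%) and 5 depleted (29.4%, median -0.72). These numbers were 2 and 3 without input replicate 2 (median -0.57) and 3 and 9 without IP replicate 2 (median -1.22). The ligand Jag1 had 59.04 and 64.1 CPM in input and 147 and 223 CPM in IP (1.59 ± 0.22, adjusted p = 0.0041) and the receptor Notch2 had 153 and 203 CPM in input and 381 and 612 CPM in IP (1.48 ± 0.26, adjusted p = 0.0083). Rfng and Lfng, fringe enzymes that add sugars to Notch receptors, had log2 fold changes of -2.95 ± 0.28 and -2.74 ± 0.64. In the BMP and TGF-beta pathway 4 of 40 genes were enriched (10%) and 6 depleted (15.0%, median -0.02), with 2 enriched without input replicate 2. Smad4, the shared signal transducer, had 20.2 and 16.4 CPM in input and 64.6 and 70.7 CPM in IP (1.89 ± 0.20, adjusted p = 0.0019), and Smurf2 (1.70 ± 0.27), a ubiquitin ligase, and the receptor Bmpr2 (1.12 ± 0.23) were enriched, and Bmpr2 lost its call under 4 of 12 alternatives, with its lowest value of 0.83 without input replicate 2. The ligands Gdf5 (-3.79 ± 0.58), Bmp3 (-1.79 ± 0.37) and Tgfb3 (-1.78 ± 0.17) were depleted. In the Hedgehog pathway 1 of 15 genes was enriched (6.67%), the receptor Ptch1 (1.24 ± 0.21, and 0.91 without IP replicate 2), and 2 were depleted (13.3%), Sufu (-1.61 ± 0.29) and the ligand Dhh (-1.22 ± 0.28). Dhh lost its call in both fits of all 32 WT libraries. In the pathway 5 genes were depleted without input replicate 1 and 6 without IP replicate 2.

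Of 15 genes listed from the study's text, which is not every gene named there, 0 were depleted in BLSP and 4 enriched. Among all genes of measured input 16.7% were depleted and 11.2% enriched, against 26.7% enriched in the list. The enriched members were Foxc1, Bglap, Mgp and Cdk6, a kinase of the G1 phase. Cdk6 had 180.1 and 177 CPM in input and 348 and 462 CPM in IP (1.18 ± 0.17, adjusted p = 0.0044) and lay at 0.89 without IP replicate 2. Outside the list the study also names Alpl, Osterix (Sp7) and Ccne1, which were depleted as given above, and Col1a1, which was not called. The study chose such genes on these libraries in part, so their direction is no independent evidence. Fem1b, a substrate receptor of a ubiquitin ligase, had 57.6 and 43.8 CPM in input and 46.8 and 32.05 CPM in IP, a log2 fold change of -0.36 ± 0.25, adjusted p = 0.33, and Gli1, a transcription factor of Hedgehog signalling, had 26.6 and 32.4 CPM in input and 15.5 and 18.3 CPM in IP, a log2 fold change of -0.80 ± 0.23, adjusted p = 0.047. Foxo3 (0.88 ± 0.25), Id2 (0.94 ± 0.14), Klf4 (0.75 ± 0.15) and Ube2h (0.79 ± 0.15) lay below the fold threshold, and Foxo1, Bmpr1a, Chst11, Spopl and Mettl3 between -0.37 and 0.84. Leaving out 1 library brought Foxo3 (1.12 without IP replicate 1), Chst11 (1.06 without IP replicate 2) and Gli1 (-1.03 without input replicate 1 and -1.01 without IP replicate 2) past it. Id2 passed it at 1.05 when at least 10 counts were required in each input library.

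Genes with hardly any input were weighed by their counts alone. The class of at most 3 counts in each input library held 22905 genes, of which 1269 had counts above 0 in both IP libraries and 205 were called enriched. Among the 205, 83 had 0 counts in both inputs, the median IP count was 20 in replicate 1 and 21 in replicate 2, and no gene exceeded 3.77 CPM in IP on average. 36.1% of them were protein coding, against 74.7% of the enriched genes of measured input. The 6 genes of the class with the highest IP level were D630008O14Rik (34 and 150 counts in IP, 0 and 0 in input), Gm22270 (21 and 113 against 0 and 3), Gm43032 (72 and 42 against 0 and 2), A530017D24Rik (54 and 55 against 0 and 2), Mir1931 (5 and 111 against 2 and 0) and Olfr287 (40 and 66 against 0 and 2), of which Mir1931 did not pass the filter. In 3 of the 6 genes, replicate 2 of IP held over 4 times the counts of replicate 1. Only 2 of the 205 genes were testable in all 7 other WT populations, and 127 were testable in none of them.

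Transcript length was related to the ratio in a way that a single correlation does not show. In the shortest decile of protein-coding transcripts of measured input (up to 1271 bases), 32.04% were enriched and 2.63% depleted, with a median log2 fold change of 0.69. In the fourth decile (2175 to 2607 bases) 4.52% were enriched and 30.1% depleted (median -0.66), and in the longest decile (6578 bases and more) 19.1% were enriched and 4.01% depleted (median 0.44). Without ribosomal protein, oxidative phosphorylation and mitochondrial genome genes, 25.7% of the shortest decile were enriched, a split chosen after seeing the data. Both replicates had this shape, with medians of 0.60 and 0.79 in the shortest, -0.61 and -0.73 in the fourth and 0.41 and 0.42 in the longest decile. Across genes, length and fold change had a Spearman correlation of 0.039. GC content was lower in enriched transcripts (median 49.2%) than in depleted ones (54.3%), with a Spearman correlation of -0.26 over 13697 genes, and in the decile of highest GC content 32.3% were depleted and 7.96% enriched. Within the deciles 2 to 9 by length, 9.09% were depleted in the third of lowest GC content and 36.3% in the third of highest. The share enriched in the longest decile was 11.4% without input replicate 2. Genes are not independent replicates, and these values describe the 4 libraries.

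**Figure D4:**
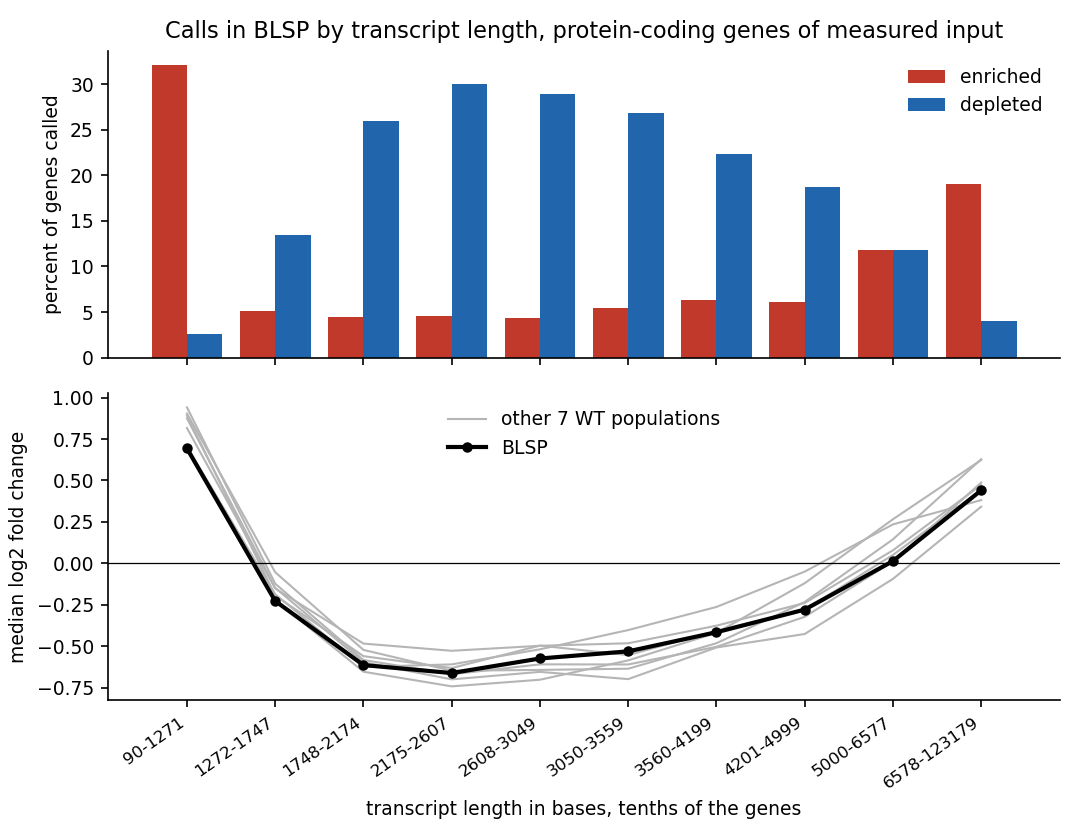
Top, bars give the percent of protein-coding genes of measured input enriched (red) and depleted (blue) in BLSP in each decile by transcript length. Bottom, the median log2 fold change in each decile is drawn for BLSP (black line with points) and for the other 7 WT populations (grey lines), with all 8 lines lowest between 1748 and 3049 bases and above 0 at both ends.

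The motif was less dense in enriched than in depleted transcripts. GGAC occurred 3.80 times per 1000 bases in enriched transcripts at the median, 4.11 times in those not called and 4.91 times in depleted ones (Spearman correlation with the fold change -0.20), counted on the transcript's own strand and not adjusted for GC content. In the decile with the fewest GGAC for its length the median log2 fold change was 0.20, with 15.8% enriched and 7.002% depleted. In the decile with the most it was -0.51, with 7.66% enriched and 27.8% depleted. In the 400 bases centred on the stop codon, GGACT was present in 38.9% of 1051 enriched, 40.5% of 8694 uncalled and 44.1% of 2311 depleted transcripts long enough to hold this window, and in 41.1% of all of them. No GGAC was found in 21 enriched transcripts (1.55%) and in 1 depleted transcript. Among 86 coding ribosomal protein transcripts, 3 held no GGAC and 37 no GGACT. A match of these letters is a description and not a methylated site.

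The directions seen in BLSP were mostly shared by the other WT populations, whose libraries are separate from those of BLSP. Of the 1819 enriched genes of measured input, 1605 were testable in all of SSC, pre-BCSP, BCSP, PCP, THY, 6C3 and HEC, and 1362 of these (84.9%) had a log2 fold change above 0 in all 7, against 23.8% of all 13334 genes so testable. Of the 2725 depleted genes, 2460 were testable in all 7 and 2062 (83.8%) lay below 0 in all 7, against 30.5%. By call, 375 of the 1819 enriched and 576 of the 2725 depleted genes were called the same way in all 7. Over all 16296 genes of measured input these numbers were 382 and 593. Another 161 (8.85%) and 302 (11.1%) were called so in none of the 7, against 76.0% and 67.5% of all. The median of ribosomal protein genes ranged from 1.19 in SSC to 2.13 in PCP in the other populations and was 1.84 in BLSP. The median of mitochondrial transcripts ranged from 1.61 in BCSP to 3.96 in 6C3, and that of lysosomal genes from -1.10 in SSC to -0.65 in HEC. Mgp lay between 1.46 (SSC) and 2.64 (6C3) in the other populations, Junb between -3.53 (6C3) and -2.54 (BCSP), and Mical1 between -4.30 (PCP) and -3.10 (SSC).

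**Figure D5:**
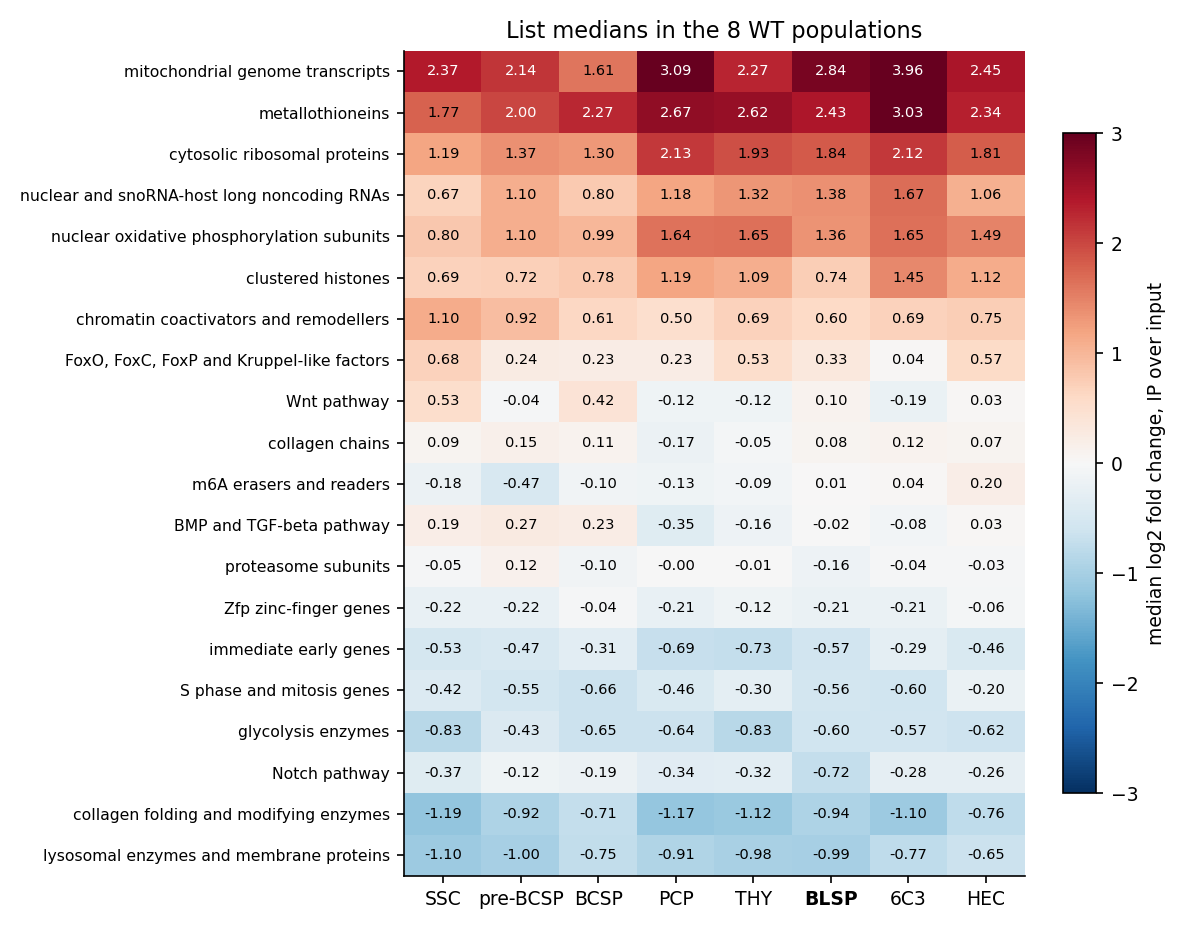
Colour (which stops at 3 and -3) and number give the median log2 fold change of IP over input for each list (rows) in each WT population (columns), over list members of measured input in BLSP. Ribosomal, mitochondrial and metallothionein lists are above 1 in all 8 columns, and collagen enzymes and lysosomal proteins below 0 in all 8.

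No gene had a ratio in BLSP that differed from the mean of the other 7 populations at an adjusted p under 0.05 (0% higher and 0% lower of 25365 genes, edgeR's quasi-likelihood test of the interaction). At an unadjusted p under 0.05, 203 genes (0.800%) were higher and 310 (1.22%) lower in BLSP, a split that became 298 and 172 with DESeq2's size factors and 351 and 295 with DESeq2's own test. DESeq2 called 2 genes, Krtap17-1 as higher (26 and 30 counts in the BLSP IP libraries and 8 and 20 in input) and Epha8 as lower (0 and 0 in IP, 12 and 23 in input), and without a filter on low counts edgeR called Mpo as lower (0 and 0 in IP, 8 and 20 in input). Before adjustment over genes, the difference for Mgp was -0.10 on the log2 scale, with a 95% interval from -0.80 to 0.60, and that for Thy1 was -0.56 (-2.22 to 1.11). For Gpc1 the difference was -0.95 (-1.77 to -0.12) and for Fto -0.41 (-1.02 to 0.19). The standard error of such a difference had a median of 0.57 on the log2 scale over genes of measured input, so that differences of about this size lay within the error of 2 replicates. In simulated data this test found 52% of genes changed by a log2 of 2 at an adjusted p under 0.05. The absence of calls therefore does not show that the ratios are equal.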

How the data were processed

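Per the labels and the study's methods, RNA of sorted cells was captured with an m6A antibody, and the authors trimmed reads with fastp 0.20.1, aligned them to GRCm38 with HISAT2 2.2.1 and counted them per gene with featureCounts 2.0.1. The deposited table holds raw read counts for 46959 entries in 44 libraries, and no column was left unmapped. The gene annotation and the strand setting are not given in the sources used here. Date-named entries (128, gene names altered by spreadsheet software) were left out. A table of gene models (GENCODE vM21) matched 44784 of 46831 genes.

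The 2 IP and 2 input libraries of WT BLSP were compared with edgeR 4.0.16 (TMM scaling, filterByExpr, quasi-likelihood test) in R 4.3.3. A gene was enriched above a log2 fold change of 1 and depleted below -1, each at an unadjusted p under 0.05, and printed adjusted p-values are Benjamini-Hochberg values over all 18425 genes tested. The difference of BLSP from the mean of 7 other WT populations was tested as an interaction in 32 WT libraries. Errors are standard errors of the fit. Ratios within a replicate used a prior count of 2. Totals of 21145166 to 38788039 counts put 3 counts at 0.0754 to 0.144 CPM, and reads without molecular identifiers are not independent molecules. Replicates were distinct libraries, with a chi-square of 28.1 (input) and 36.5 (IP) for each degree of freedom. Replicate numbers pair IP with input because, in the study, sorted cells of 1 batch were divided between both, and deviations of same-numbered libraries correlated with r = 0.123.

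Named genes are the 10 highest and lowest protein-coding genes of measured input, the 6 highest and lowest above 50 CPM in input, the 6 of highest IP level with hardly any input, up to 3 called members in each direction and the most abundant member of each list. Sort antigens, Mgp, Mettl3 and a list of 15 genes from the study's text are named as well. Long abundant mRNAs, the lists of lysosomal genes, collagen enzymes, chromatin coactivators and metallothioneins, and the genes whose motifs are printed were added after their values were seen, and genes shown in the comparison between populations were chosen for illustration. Members and lists were all chosen with earlier results of these data known. Tested on simulated data for the BLSP comparison (18425 genes), 84.5% of 200 genes changed by a log2 of 2 passed an unadjusted p under 0.05 and 61.5% an adjusted one. For the difference of BLSP from the other populations these shares were 79.5% and 52%. DESeq2 1.42.0, other scalings and filters, a replicate block and leaving out each library were tried. Libraries of Mettl3-deleted cells were not analysed here.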

Additional observations from a re-analysis of the deposited data

How the results depend on the processing

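Of the 1819 enriched and 2725 depleted genes of measured input, 797 (43.8%) and 1590 (58.3%) were called under every alternative, among them 76 of 82 enriched ribosomal protein genes, 47 of 50 oxidative phosphorylation genes, 16 of 18 depleted lysosomal genes and 11 of 11 collagen enzymes. No enriched or depleted gene among those named reversed its direction, whereas the fitted values of uncalled genes such as Tek (-0.70 to 0.77) and Enpep (-4.55 to 0.07) crossed 0. The number of enriched genes was 1188 to 3374 when 1 library was left out, 1313 when all 32 WT libraries shared 1 fit and 1148 with a replicate block in that fit. For genes of measured input these values were 1087 to 2203, 1134 and 1082, and for the percent of the longest decile enriched 11.4 to 19.8, 12.04 and 11.8. The number of depleted genes was 2320 to 3926 when 1 library was left out. The cause of these shifts was not tested. In the test of BLSP against the other populations, DESeq2 called 1 gene higher and 1 lower, and edgeR without a filter on low counts called 1 lower.

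The replicate numbers pair the libraries. With the replicate block in the BLSP comparison 2000 genes were enriched and 2829 depleted, and neither total moved by more than 1.5 times. Counts within lists could move further, as with depleted Gm genes, which numbered 54 with the block and 90 without. In the test against the other populations the block gave 0 calls in either direction at an adjusted p under 0.05, and 176 higher and 457 lower genes at an unadjusted p under 0.05. With DESeq2's test and size factors the median difference over all genes moved from -0.02 to 0.10 and 0.11 on the log2 scale.

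A group of 2 libraries does not allow a test of whether 1 library stands apart. Enrichment is relative to the other transcripts of a library, and the depth limits statements on genes with hardly any input to their IP counts.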
